A study of Mus musculus with 24 samples.

Results

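Of the 24 RNA-seq libraries of the series, 6 are described here: 3 of the f1 R172H line and 3 of the f1 Y202C line, chosen by their labels alone and compared over all 14427 genes of the deposited count table. Both lines carry a missense change in the DNA-binding domain of mouse p53 and both come from the same starting culture, f1, so the comparison asks how the transcriptomes of these lines differ when the animals' sex and the parent culture are shared. The starting cells were cortical astrocytes from C57BL/6 pups at postnatal day 1, pooled from at least 3 female pups (m1 is the male counterpart), with 1 floxed and 1 deleted Trp53 allele. A retrovirus brought in the mutant Trp53 with an eGFP reporter and the cells were sorted for eGFP. A Cre lentivirus with puromycin resistance then removed the floxed allele, so R172H and Y202C cells alike, and the Y217C line, lack an endogenous wild-type copy, while the p53 KO line received Cre without a mutant. Cells were grown in DMEM/F12 with 10% fetal bovine serum and taken at passages 10 to 15, and replicates were separate thaws and platings. Each line was derived once, so a difference between R172H and Y202C cannot be told apart from a difference between these 2 lines, and p-values measure the spread between platings.

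p53 is a tetrameric transcription factor that restrains proliferation after DNA damage and other stress. R172H lies in the mouse counterpart of a human structural hotspot and Y202C and Y217C, like it, are substitutions in the DNA-binding domain. Type I interferons signal through the receptor chains Ifnar1 and Ifnar2 and the kinases Jak1 and Tyk2 to transcription factors including Stat2 and Irf9, which bind interferon-stimulated response elements and switch on antiviral genes. Astrocytes are able to mount this response, and in culture they also make chemokines, matrix proteins and growth factors.

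The R172H libraries held 95362078 to 136503809 counts and the Y202C libraries 52787288 to 76014594 counts. Between replicates of a line the median coefficient of variation over genes was 6.20% in R172H and 8.83% in Y202C. Trp53, here the sum of the introduced and any endogenous transcript, was at 1890, 2020 and 1957 CPM (read counts scaled to the size of the library) in the R172H libraries and at 602, 605 and 572 CPM in the Y202C libraries, against a mean of 48.9 CPM in p53 KO and 3709 CPM in Y217C. All mutant libraries therefore carried far more Trp53 than the deleted line, and R172H had more of it than Y202C by 1.72 ± 0.05 (log2 fold change ± SE, n = 3 libraries per line, adjusted p = 4.58e-18). Xist, the RNA that silences 1 X chromosome in females, was at 450 to 591 CPM in R172H and 421 to 711 CPM in Y202C and did not pass the test (log2 fold change -0.19, adjusted p = 0.266). The label "astrocytes" was only partly borne out by RNA markers in these derived lines. The authors assessed astrocyte purity by GFAP immunofluorescence, a measure of protein that they describe for the starting cultures. Gfap, the classical astrocyte filament, was at 0.0381 to 0.124 CPM across the 6 libraries, and the water channel Aqp4 had reads in only 1 library of each line. The glutamate transporter Slc1a3 and the glial factor Sox9 were expressed in both lines. Fibroblast collagens were abundant in both, with Col1a1 at 20434 to 24023 CPM in R172H and 17698 to 20550 CPM in Y202C. The 12 measured fibroblast and meningeal markers summed to 42438 to 49491 CPM in R172H and 35173 to 41543 CPM in Y202C. The 16 measured astrocyte markers summed to 1765 to 1844 CPM and 1527 to 1891 CPM, in the same order. Of 12 microglia and macrophage markers only Csf1r, Tmem119 and Cd68 were among the genes tested, and Aif1, Cx3cr1 and Ptprc were not. The part of these other cell types in the results was not tested. A lower number of cells of a type and less RNA per cell cannot be told apart in bulk libraries.

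R172H cells differed from Y202C cells in a large share of the transcriptome, in both directions, and 3 of the 12 largest rises were in interferon-inducible families. Of the 14427 genes, 8589 (59.5%) passed an adjusted p of 0.05 in edgeR's quasi-likelihood test with Benjamini-Hochberg adjustment, the test behind every adjusted p given here. With TMM scaling they divided into 4298 higher (29.8%) and 4291 lower (29.7%) in R172H, and with total counts in place of TMM into 3606 higher and 5174 lower. Most changes were small: the median absolute log2 fold change was 0.47 among genes past the test and 0.29 among all genes. A change of more than 1 on the log2 scale was reached by 1902 genes (13.2%), of which 1164 (8.07%) were higher and 738 (5.12%) lower in R172H. The tail was longer on the R172H side, with the 5th percentile at -1.05 and the 95th at 1.65. In 60% of all genes the 3 R172H libraries and the 3 Y202C libraries did not overlap.

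**Figure D1:**
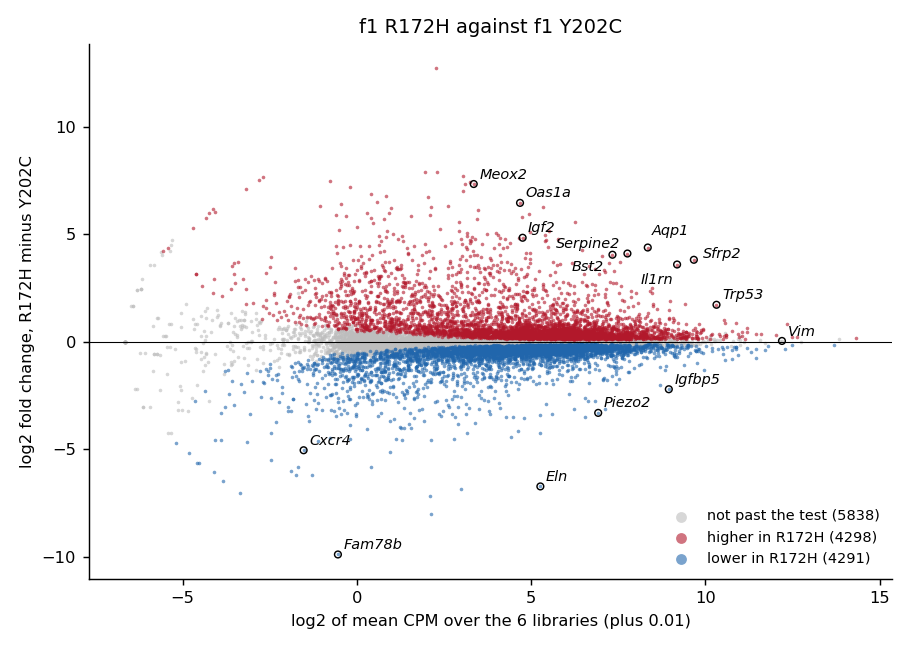
Each point is 1 gene, with the log2 of its mean CPM over the 6 libraries plus 0.01 on the x axis and the log2 fold change of R172H minus Y202C on the y axis. Red points (4298) were higher and blue points (4291) lower in R172H, grey points did not pass the test, circles mark genes named in the text, and fitted values of genes at the floor in 1 line, such as Fam78b, depend on the prior count.

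The largest rises included genes that were absent or nearly so in Y202C. Meox2, a mesodermal homeobox factor, was at 21.1, 21.6 and 18.2 CPM in R172H and at 0.187, 0.155 and 0.0512 CPM in Y202C (log2 fold change 7.34 ± 0.29, adjusted p = 2.48e-11). No reads of Meox2 were found in p53 KO or Y217C. Myh2, a skeletal muscle myosin, was at 7.85 to 12.7 CPM against 0 to 0.0895 CPM, and Cnmd, the cartilage protein chondromodulin, at 4.92 to 11.2 CPM against 0 to 0.0773 CPM. Gdf10, a ligand of the BMP family, was at least 30.7-fold and the kinase gene Stk32b at least 46.4-fold higher in R172H, against a floor of 3 counts per library in Y202C. Ccdc149 was at 3.34 to 3.74 CPM against at most 0.0512 CPM. Ccser1 and BC064078 stood only at 0.245 to 0.286 and 0.148 to 0.299 CPM in R172H and had no reads in Y202C, so their bounds were at least 4.75-fold and 3.57-fold. Gbp9, Gvin1 and Oas1g, also among the 12 highest, belong to interferon-inducible families.

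Some abundant genes had wide rises too. Aqp1, a water channel of choroid plexus and of reactive and tumour astrocytes, was at 688, 571 and 602 CPM in R172H and at 25.6, 32.9 and 30.3 CPM in Y202C (4.39 ± 0.12, adjusted p = 2.94e-19). Serpine2, an inhibitor of extracellular serine proteases that glia secrete, was at 381 to 460 CPM against 21.1 to 25.8 CPM (4.11 ± 0.10). Tfap2b, a neural crest transcription factor, was at 231 to 253 CPM against 12.2 to 17.2 CPM (4.01 ± 0.11). Sfrp2, a secreted antagonist of Wnt, was at 1830, 1421 and 1301 CPM against 101 to 115 CPM (3.82 ± 0.20). In each of these genes all R172H libraries lay above all Y202C libraries, which a choice by the widest differences favours. Among all genes, 60% had no overlap between the lines in either direction. The remaining 2 of the 6 highest abundant genes were Bst2 and Cxcl5, described with their groups.

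Genes lower in R172H included Eln, Myo5b and a pair of HOX genes among the 12 lowest. Eln, elastin, was at 0.774, 0.778 and 0.61 CPM in R172H and at 63.1, 84.9 and 80.2 CPM in Y202C, while p53 KO had 2.45 CPM, so the level in Y202C stood apart (-6.73 ± 0.21, adjusted p = 3.49e-18). Myo5b, a motor of recycling endosomes, was at 0 to 0.107 CPM against 7.43 to 9.89 CPM, and Ablim3, an actin-binding LIM protein, at 0.0212 to 0.139 CPM against 7.94 to 9.03 CPM. Fam78b had no reads in R172H and was at least 42.2-fold lower. Nkx6-1, a homeobox factor of the ventral neural tube and pancreas, was at 0.0318 to 0.213 CPM against 3.42 to 4.18 CPM. Others in the lowest 12 stood below 1 CPM in both lines: Gsc at least 17.98-fold, Dgkg at least 16.04-fold and Tril at least 10.7-fold lower, with Cxcr4, the Cxcl12 receptor, at 0 to 0.0457 against 0.635 to 0.691 CPM and Rapgef4 at 0 to 0.0746 against 0.728 to 0.997 CPM. Hoxa4 and Hoxa5 complete the 12.

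Among abundant genes, Piezo2, a mechanically gated channel, was at 23.1, 21.3 and 22.2 CPM in R172H and at 217.2, 198 and 246 CPM in Y202C (-3.31 ± 0.08, adjusted p = 3.77e-20). Zdhhc21, a palmitoyltransferase, was at 27.1 to 29.97 CPM against 206 to 284 CPM (-3.14 ± 0.11). Igfbp5, which binds insulin-like growth factors, was at 164 to 184 CPM against 774 to 881 CPM (-2.21 ± 0.09). Nfib, a nuclear factor that drives glial differentiation, was at 153 to 169 CPM against 503 to 749 CPM (-2.02 ± 0.12). Syne2, a nesprin of the nuclear envelope, and Adam12, a metalloprotease, fell by 1.98 and 1.80 on the log2 scale. For Piezo2, Igfbp5 and Zdhhc21 the means were 11.7, 117 and 24.9 CPM in p53 KO and 3.19, 29.96 and 20.3 CPM in Y217C, so Y202C had the highest mean of the 4 f1 lines in each.

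Interferon-stimulated genes were higher in R172H almost without exception. Of 30 listed and measured genes, 29 rose, none fell and 28 exceeded a log2 fold change of 1, beside 29.8% of all genes called higher and 8.07% called higher above 1. The median log2 fold change of the list was 3.16, beside -0.01 over all genes. Every gene of the deposited table was above 1 CPM in at least 2 libraries. Some members may be in it only because R172H is high. Oas1a, for example, had means of 50.7 CPM in R172H, 0.555 CPM in Y202C, 0.0378 CPM in p53 KO and 0 CPM in Y217C. For such members the filter favoured a rise, which enters both the count and the median. Ifi27 was the exception, at 54.3 to 60.3 CPM against 47.3 to 61.5 CPM (0.08 ± 0.11, adjusted p = 0.568), and Xaf1 the smallest rise (0.70 ± 0.14). In the other 29 genes the lowest R172H library lay above the highest Y202C library, beside 60% of all genes without overlap in either direction. Summed over the list, the level was 2872 to 3933 CPM in R172H and 598 to 741 CPM in Y202C. The 30 genes lie on 14 chromosomes.

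The antiviral effectors had the largest differences. Oas1a, an oligoadenylate synthetase that senses double-stranded RNA, was at 64.7, 45.3 and 42.0 CPM in R172H and at 0.448, 0.386 and 0.831 CPM in Y202C (6.46 ± 0.27, adjusted p = 6.10e-14). Trim30a was at 72.7, 61.0 and 47.7 CPM against 0.803, 0.556 and 1.51 CPM (5.94 ± 0.30). Oas3 (5.91), Mx1 (4.60), Oas2 (4.57), Ifi44 (4.26) and Rsad2 (4.04) rose to a similar degree on the log2 scale. Bst2, tetherin, which holds budding virions at the cell surface, was at 379, 263 and 269 CPM against 14.9, 21.3 and 18.6 CPM (4.05 ± 0.18). Isg15, a ubiquitin-like modifier, was at 300, 222 and 229 CPM against 20.4, 24.8 and 27.8 CPM (3.36 ± 0.19), and Usp18, which removes it, rose by 3.73. Ifit1, which binds foreign RNA caps, was at 318, 256 and 225 CPM against 35.7, 31.5 and 49.8 CPM (2.77 ± 0.19). R172H library 1 was the highest of its line for each of these genes. Oas1a and Oas1g, Ifit3 and Ifit3b, and the guanylate-binding and Gvin genes have near-identical copies, so the division of reads among copies is uncertain.

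**Figure D2:**
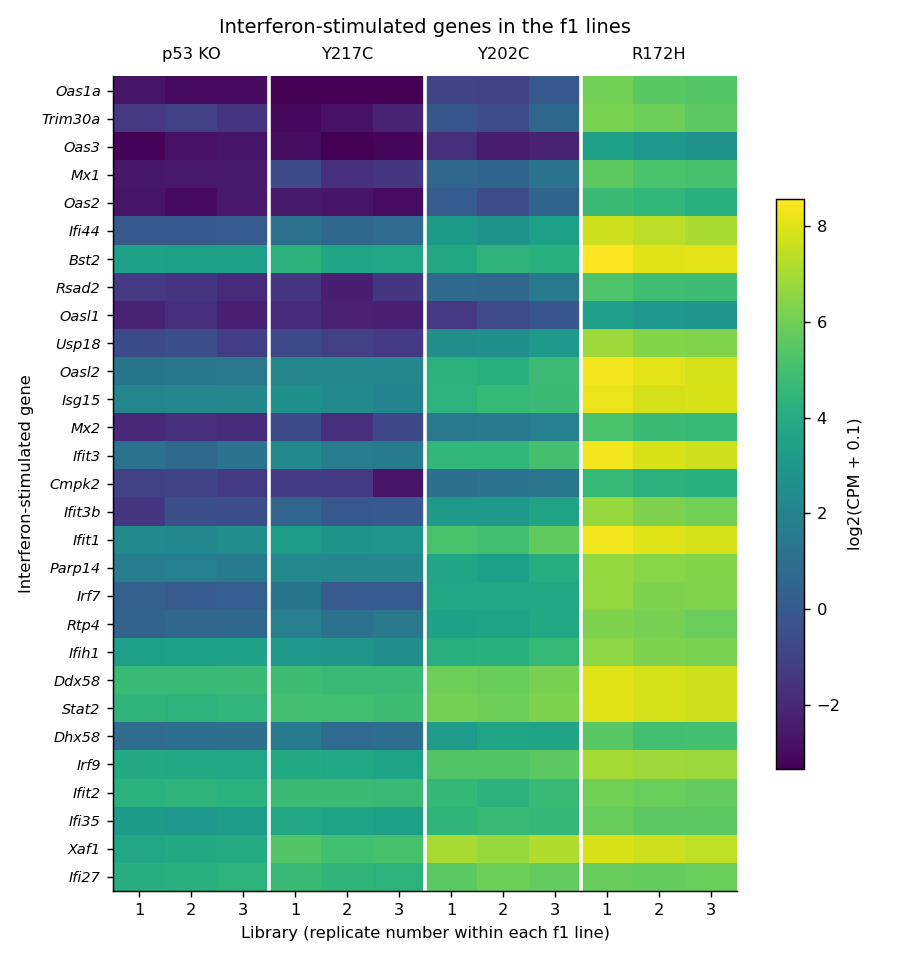
Rows are 29 of the 30 interferon-stimulated genes, ordered by the log2 fold change of R172H minus Y202C, columns are the 3 libraries of each of the 4 f1 lines, and colour gives log2(CPM + 0.1). Levels are highest in the R172H libraries, lower in Y202C and lower again in p53 KO and Y217C for most rows.

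The level in Y202C was itself not the lowest of the culture. All 30 genes had a higher mean in Y202C than in p53 KO, and all 30 had their highest mean of the 4 f1 lines in R172H. The matching shares of all genes were not counted. The filter and a list chosen with earlier results known favour a high level in R172H. The sum over the list was 174 CPM in p53 KO, 230 CPM in Y217C, 652 CPM in Y202C and 3321 CPM in R172H. For Ifit1 the order was 5.03, 7.89, 39.0 and 267 CPM, and for Oasl2 2.44, 4.41, 21.96 and 277 CPM. These reference levels are given as values without a test.

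Promoter sequences show where matches to the core of the response element lie in some of these genes. Binding at these matches was not tested. The element's core was searched as GAAA, any 2 bases, GAAA on either strand within the 250 bases before each RefSeq start site (GRCm38.p6). Of 21 of the 30 genes with an entry, 10 held at least 1 copy, beside 3.25% of the 10290 genes of the table with an entry. Among genes past the test by more than 1 on the log2 scale, the share was 8.40% of 833 genes higher in R172H and 3.09% of 517 genes lower. The list was drawn up from genes known for this response, so its share is a description of the list. The 120 bases before the start of 5 members are shown because they carry a match close to the start, with the core in capitals and overlapping copies run together:
Oas1a, chr5:120907526-120907645, minus strand: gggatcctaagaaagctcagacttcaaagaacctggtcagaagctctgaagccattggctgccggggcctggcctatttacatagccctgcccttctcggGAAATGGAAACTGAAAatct
Isg15, chr4:156200819-156200938, minus strand: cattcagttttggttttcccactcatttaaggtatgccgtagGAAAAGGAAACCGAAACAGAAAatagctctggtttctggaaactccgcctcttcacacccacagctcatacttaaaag
Ifit1, chr19:34640769-34640888, plus strand: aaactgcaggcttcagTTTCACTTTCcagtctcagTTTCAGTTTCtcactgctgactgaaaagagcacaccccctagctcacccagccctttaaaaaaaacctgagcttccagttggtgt
Oas3, chr5:120777660-120777779, minus strand: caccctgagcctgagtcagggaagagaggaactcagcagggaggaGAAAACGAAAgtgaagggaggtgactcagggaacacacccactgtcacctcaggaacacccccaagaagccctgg
Trim30a, chr7:104465194-104465313, minus strand: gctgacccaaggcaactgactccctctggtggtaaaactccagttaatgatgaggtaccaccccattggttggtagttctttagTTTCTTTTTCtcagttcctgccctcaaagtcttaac
In this window Isg15 held 3 overlapping copies, Oas1a 2 overlapping copies, Ifit1 2 separate copies on the reverse strand, and Oas3 and Trim30a 1 each. Trim30a has a second start site in the table, without a copy.

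Genes along the interferon pathway differed by unequal amounts. Apart from Stat2, Irf9, Irf7, Ddx58 and Ifih1, which belong to the list above, they were grouped by role after the values of the targets had been seen. The receptor chain Ifnar1 was at 88.4 to 94.2 CPM in R172H and 90.2 to 92.9 CPM in Y202C (0.00 ± 0.05, adjusted p = 0.956), and Ifnar2 rose by 0.20 ± 0.05. The interferon-gamma receptor chains Ifngr1 and Ifngr2 rose by 0.40 and 0.55. Of the kinases, Jak1 rose by 0.82 ± 0.04, while Jak2 fell by 0.38 and Tyk2 fell by 0.20. The signal transducers, themselves interferon-inducible, rose as well: Stat2 by 1.71 ± 0.08 and Irf9 by 1.43 ± 0.10. Irf7, which amplifies interferon production, rose by 2.63 ± 0.24, Irf1 by 0.64 and Irf2 by 0.30, while Irf3 fell by 0.16 and Irf5 did not pass the test (-0.38, adjusted p = 0.0618). All 7 measured genes of nucleic acid sensing rose, beside 29.8% of all genes called higher. They range from Mavs, the mitochondrial adaptor of the RNA sensors (0.22), and Tmem173, which encodes the adaptor STING (0.83), through Eif2ak2, the kinase PKR (0.90), and Adar (1.01) to Cgas (1.57), Zbp1 (1.77) and the endosomal receptor Tlr3 (2.16). The RNA sensors of the main list, Ddx58 and Ifih1, rose by 1.85 and 1.97. All 7 interferon-inducible GTPases rose, from Irgm1 (0.43) to Gbp3 (3.62) and Iigp1 (3.59). Of the feedback inhibitors, Socs3 rose by 1.71 ± 0.07 and Socs1 by 0.42 ± 0.14. The interferon genes Ifnb1 and Ifna4 were not analysed here.

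Antigen presentation through MHC class I moved the same way. Of 15 measured genes, 14 rose and none fell, beside 29.8% higher and 29.7% lower among all genes, and the median log2 fold change was 1.34, or 0.80 without the 10 members on chromosome 17. Nlrc5, the transactivator of class I genes, was at 38.2, 30.2 and 30.6 CPM in R172H and at 1.08, 1.16 and 1.25 CPM in Y202C (4.81 ± 0.18, adjusted p = 7.75e-17). The heavy chain H2-K1 was at 147 to 197 CPM against 24.4 to 30.8 CPM (2.61 ± 0.11) and H2-D1 at 179 to 229 CPM against 37.3 to 50.6 CPM (2.21 ± 0.10). H2-Q4, a non-classical chain, was at 14.8 to 21.7 CPM against 0.433 to 0.579 CPM (5.06 ± 0.24). B2m, the invariant light chain, was already abundant in Y202C and rose by 0.93 ± 0.08. The immunoproteasome subunit Psmb8 rose by 3.47, the peptide transporter Tap1 by 2.60, Tap2 by 0.84 and the chaperone Tapbp by 0.46. Calr, a general chaperone of the endoplasmic reticulum, was the 1 member that did not pass (0.07 ± 0.07, adjusted p = 0.350). Class I heavy chains share sequence, so reads may be divided among them with error. Unlike the interferon-stimulated genes, only 10 of the 15 were higher in Y202C than in p53 KO, and the share of all genes was not counted. For Nlrc5, H2-K1 and H2-D1 the p53 KO means were 2.26, 35.0 and 54.5 CPM, above the Y202C means of 1.16, 27.3 and 42.5 CPM.

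Chemokines and cytokines were raised in part. Of 21 measured genes, 13 rose and 4 fell, beside 29.8% higher and 29.7% lower among all genes, with a median log2 fold change of 0.62. Il1rn, the secreted antagonist of the interleukin-1 receptor, was at 1150, 1077 and 999 CPM in R172H and at 89.6, 85.6 and 91.6 CPM in Y202C (3.60 ± 0.08, adjusted p = 2.40e-20). Both levels were far above p53 KO (0.0911 CPM) and Y217C (0.251 CPM). Cxcl5, a neutrophil chemokine, was at 330, 362 and 357 CPM against 25.6, 27.1 and 27.3 CPM (3.71 ± 0.14). Ccl2, which attracts monocytes, was at 108 to 140 CPM against 17.1 to 21.3 CPM (2.66 ± 0.11), and the interferon-inducible chemokine Cxcl10 at 30.6 to 39.8 CPM against 3.02 to 3.62 CPM (3.34 ± 0.14). The latter pair was chosen after their values were seen. The alarmin Il33 ran the other way, at 9.37, 8.32 and 8.25 CPM in R172H and 81.3, 88.5 and 96.0 CPM in Y202C (-3.36 ± 0.17, adjusted p = 4.33e-14). Ccl20 also fell, from 4.30 to 4.78 CPM in Y202C to 0.373 to 0.768 CPM in R172H (-3.08 ± 0.28). Genes reported as reactive in astrocytes overlapped these groups, with 21 of 34 higher and 9 lower. The highest among them with a mean of at least 1 CPM were Slc10a6, a transporter of sulphated steroids (13.98 to 15.7 CPM against 0.278 to 0.541 CPM), and Iigp1. The lowest was Sphk1 (-1.68), a kinase that makes sphingosine 1-phosphate.

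Canonical p53 target genes changed in both directions. Of 25 measured, 14 were higher in R172H, 4 lower and 7 not past the test, beside 29.8% higher and 29.7% lower among all genes, with a median of 0.37. Cdkn1a, the cell cycle inhibitor p21, was at 19.6, 18.6 and 18.01 CPM in R172H and 8.96, 7.73 and 8.80 CPM in Y202C (1.14 ± 0.08, adjusted p = 1.45e-11). Its mean was 16.8 CPM in p53 KO, so the Y202C line was the low one. Perp, a desmosomal and apoptotic effector, rose by 2.11 ± 0.13 and Gdf15, a stress cytokine at 2 CPM or below in both lines, by 2.37 ± 0.30. Tigar, which lowers glycolytic flux, fell by 0.58 and Ccng1 fell by 0.54. Mdm2, the ubiquitin ligase of p53, was at 48.7 to 55.0 CPM and 50.1 to 57.1 CPM and did not pass (-0.09 ± 0.06, adjusted p = 0.235). Cdkn2a was at 353, 307 and 374 CPM in R172H against 176, 250 and 182 CPM (0.76 ± 0.11, adjusted p = 2.58e-06), its counts covering both the p16 and the p19 product.

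Proliferation genes showed no common direction. Of 24 DNA replication genes, 4 rose, 6 fell and 14 did not pass, and of 24 mitosis genes 6 rose, 5 fell and 13 did not pass, 41.7% and 45.8% called beside 59.5% among all genes. The medians were 0.02 and -0.04. The widest single change in either list was Rrm2, a subunit of ribonucleotide reductase, at 40.4 to 49.7 CPM against 96.2 to 101 CPM (-1.11 ± 0.11), a gene of chromosome 12. Cdc20, an activator of the anaphase-promoting complex, rose by 0.44 and Cenpf, a kinetochore protein, fell by 0.41. On the inhibitor side, Cdkn2c, which encodes p18, was at 56.4 to 58.0 CPM against 25.9 to 27.1 CPM (1.11 ± 0.06). Cdkn1c, which encodes p57, was higher in R172H by 1.81 ± 0.15. Its means of 15.2 CPM in R172H and 4.37 CPM in Y202C were both below p53 KO (98.3 CPM) and Y217C (225 CPM). Ccnd2 fell by 0.37 and Mycn by 1.27.

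HOX genes set positional identity along the body axis. Of the 6 measured, 4 were lower in R172H (Hoxa3, Hoxa4, Hoxa5 and Hoxa7) and 2 higher. The shares among all genes were 29.7% lower and 29.8% higher. Hoxa3 was at 0.297 to 0.352 CPM against 1.25 to 1.55 CPM (-2.12 ± 0.34). Hoxa4 was at least 24.7-fold and Hoxa5 at least 18.6-fold lower, from levels below 1 CPM in Y202C. Hoxc8 rose by 0.52 ± 0.16. In p53 KO and Y217C, Hoxa4 and Hoxa5 were also near 0, at means of at most 0.030 CPM. Neighbouring HOXA genes, and antisense transcripts among them, overlap in places, and strand use in the counting was not given in the sources used here.

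RNA of most listed genes of Notch signalling, which maintains progenitors through contact between cells, was lower in R172H. Of 12 measured genes, 8 fell and 1 rose, beside 29.7% lower and 29.8% higher among all genes (median -0.32). The ligand Jag1 was at 31.4, 28.4 and 28.7 CPM in R172H and 81.5, 80.8 and 85.6 CPM in Y202C (-1.49 ± 0.07, adjusted p = 2.61e-15), and the target Hes1 at 20.8 to 24.8 CPM against 60.2 to 69.2 CPM (-1.48 ± 0.07). Maml2, a coactivator, was the 1 gene that rose (0.23 ± 0.06). For Jag1 the p53 KO mean of 28.8 CPM lay with R172H, and for Hes1 the p53 KO mean of 78.4 CPM lay above both lines.

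The Wnt list was divided, with 18 of 41 genes higher and 14 lower (median 0.11), beside 29.8% higher and 29.7% lower among all genes. Sfrp2 and Nkd1, both antagonists, were the highest. Nkd1 was at 22.7 to 32.8 CPM against 1.79 to 1.99 CPM (3.82 ± 0.22). The ligand Wnt2 and the negative feedback gene Axin2, a general target of the pathway, were the lowest, with Wnt2 at 2.03 to 2.52 CPM against 19.2 to 21.5 CPM (-3.13 ± 0.14) and Axin2 at 1.20 to 1.56 CPM against 9.76 to 11.6 CPM (-2.93 ± 0.16). Wnt5a, a ligand of the non-canonical branch, rose from 56.4 to 59.3 CPM in Y202C to 88.9 to 103 CPM in R172H (0.72 ± 0.06). The TGF-beta and BMP list was even too (15 higher, 14 lower of 36). The BMP antagonist Chrdl1 rose by 2.95 ± 0.21 while Chrd, its relative, fell by 1.72 ± 0.12, as did the BMP effector Smad9 (-1.70 ± 0.10).

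Matrix and adhesion genes changed in both directions, and the counts below stand beside 29.8% higher and 29.7% lower among all genes. Of 27 collagens, 16 rose and 9 fell (median 0.30). Col11a1 was at 537 to 620 CPM against 188 to 206 CPM (1.55 ± 0.06) and Col15a1 at 1.81 to 2.92 CPM against 12.3 to 15.5 CPM (-2.57 ± 0.18). Of 34 integrins, laminins and glycoproteins, 10 rose and 15 fell. The laminin chain Lama4, typical of vessels and mesenchyme, was at 205, 186 and 178 CPM in R172H and 32.8, 36.5 and 38.7 CPM in Y202C (2.39 ± 0.15), whereas Lama1 was at 3.29 to 3.76 CPM against 21.6 to 25.7 CPM (-2.76 ± 0.15). Tnc, tenascin-C, which astrocytes deposit around tumours and scars, rose from 309 to 320 CPM to 1011 to 1121 CPM (1.74 ± 0.07). Cadherins moved in both directions. Cdh3, P-cadherin, was at 140, 132 and 131 CPM against 10.4, 10.96 and 10.3 CPM (3.67 ± 0.10), while Cdh18 fell by 3.20 and Cdh13 by 3.18. Among axon guidance genes, 21 of 51 rose and 22 fell. Sema3e, a repulsive semaphorin, was at 22.9 to 26.4 CPM against 159 to 187 CPM (-2.77 ± 0.07). Plxna4, a plexin receptor, rose from 0.280 to 0.541 CPM to 3.72 to 4.29 CPM (3.42 ± 0.24). The collagenase Mmp13 was at 2.38 to 2.90 CPM in R172H and at most 0.0927 CPM in Y202C.

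Growth factor genes and imprinted genes, which are expressed from 1 parental allele and often regulate growth, were among the widest ranges. Igf2, a fetal growth factor, was at 55.8, 53.6 and 47.1 CPM in R172H and 1.47, 1.68 and 2.21 CPM in Y202C (4.84 ± 0.19, adjusted p = 1.79e-16). H19, the untranslated RNA of the opposite allele at the same locus, was at 14.01, 14.7 and 16.5 CPM in R172H and 127, 135 and 139 CPM in Y202C (-3.15 ± 0.14). Means in p53 KO were 19.5 CPM for Igf2 and 489 CPM for H19. Mest was at 141 to 193 CPM against 17.6 to 19.8 CPM (3.14 ± 0.09) and Peg10 fell by 1.06. In all, 13 of 23 imprinted genes rose and 5 fell, beside 29.8% higher and 29.7% lower among all genes. Of receptor tyrosine kinase ligands and receptors, 15 of 40 rose and 14 fell. Pdgfd rose by 2.77 ± 0.10 from near 2 CPM, and Tgfa and Erbb3 fell by 2.59 and 1.99 at levels of at most 2 CPM. Fgf2 was at 3.27 to 3.82 CPM against 3.74 to 4.18 CPM and did not pass (adjusted p = 0.359). Agtr2, a receptor of angiotensin II, was at 21.3, 20.2 and 17.6 CPM in R172H and 2.82, 2.60 and 3.57 CPM in Y202C (2.71 ± 0.19). Agtr2 was at a mean of 0.00644 CPM in p53 KO.

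Astrocyte markers changed without a common direction, with 6 of 16 higher and 7 lower. The counts of this and the other cell types stand beside 29.8% higher and 29.7% lower among all genes. Aldh1l1, a folate enzyme used to mark astrocytes, was at 17.02, 13.2 and 14.4 CPM in R172H and 0.149, 0.402 and 0.358 CPM in Y202C (5.56 ± 0.19, adjusted p = 2.63e-17). Slc1a3 was at 287, 285 and 271 CPM against 41.8, 39.3 and 46.9 CPM (2.72 ± 0.10), and Sox9 rose by 1.18 ± 0.07. S100b fell from 0.970 to 1.28 CPM to 0.152 to 0.256 CPM, and the other glutamate transporter, Slc1a2, fell by 2.67 from 1.10 to 2.01 CPM. Vim, the filament of immature glia and mesenchyme, was at 4300 to 5126 CPM and 4337 to 5114 CPM (0.04 ± 0.06, adjusted p = 0.632). Of the fibroblast and meningeal markers, 8 of 12 rose and 3 fell, among them Lum, lumican, at 17 to 20.1 CPM against 0.572 to 0.780 CPM (4.74 ± 0.25), while Foxc1, a factor of the meninges, fell by 1.23 ± 0.05. Markers of neurons (2 of 6 higher, 2 lower), endothelium (2 of 6 higher, 3 lower) and mural cells (4 of 8 higher, 3 lower) were mixed.

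Stress and metabolic lists had small medians, and their counts are to be read beside 29.8% higher and 29.7% lower among all genes. The 20 genes of ATF4 and the unfolded protein response included 15 that rose and 2 that fell, with a median of 0.36 and none above 1. Ddit3, which encodes CHOP, rose by 0.89 ± 0.08 and the serine synthesis enzyme Psat1 by 0.73 ± 0.04. Cholesterol and fatty acid synthesis had 19 of 30 higher and 2 lower (median 0.26), with the desaturase Scd1 among the highest (544 to 575 CPM against 152 to 180 CPM, 1.75 ± 0.06). Of the AP-1 and ATF factors 10 of 14 rose, led by Fos (1.17 ± 0.14), and 1, Fosl1, fell by 0.74. Glycolysis and hypoxia (13 of 29 higher, 7 lower), oxidative phosphorylation (15 of 36 higher, 8 lower), lysosome (16 of 36 higher, 10 lower) and NRF2 targets (8 of 18 higher, 7 lower) had medians between 0.01 and 0.14.

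**Figure D3:**
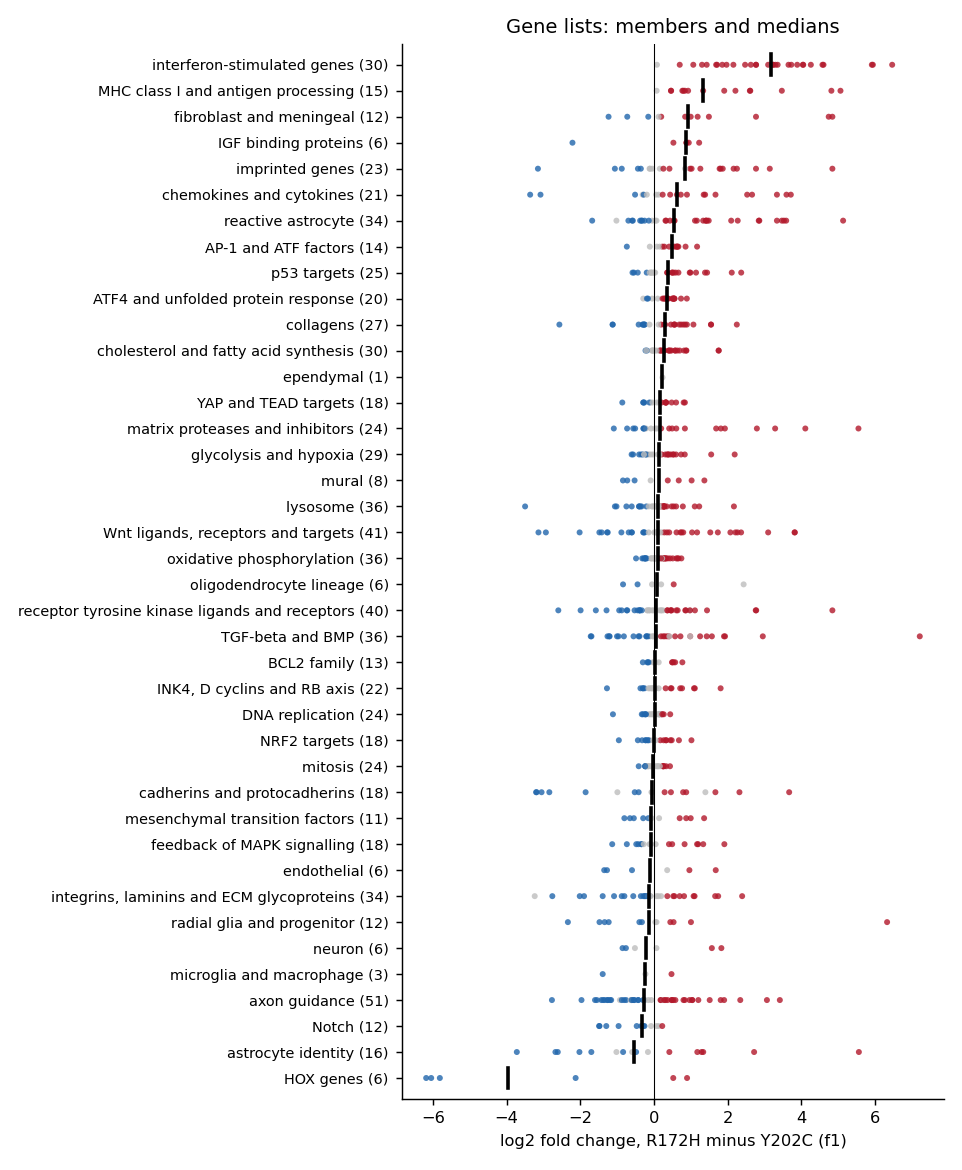
Each row is 1 of 40 gene lists with the number of measured members in brackets, each point is a member's log2 fold change of R172H minus Y202C, and the black bar is the list's median. Red points were higher, blue points lower and grey points not past the test, and the interferon-stimulated and MHC class I lists have the highest medians (3.16 and 1.34). In the HOX list, Hoxa4, Hoxa5 and Hoxa7 are at the floor in R172H, so their points are fitted values and no bounds.

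Beyond single genes, whole chromosomes were displaced. On chromosome 12, 357 of 494 genes (72.3%) were lower and 45 (9.11%) higher in R172H, with a median log2 fold change of -0.47. Among all genes 29.7% were called lower and 29.8% higher, and the counts of each chromosome stand beside these shares. Chromosomes 4, 14 and 15 were shifted upward, with 541 of 938, 294 of 496 and 317 of 551 genes higher and medians of 0.31, 0.30 and 0.26. Chromosome 13 had a median of -0.23 with 51.7% of its genes lower, and chromosomes 2, 6, 11 and 16 had 43.9% to 46.4% lower. The X chromosome had a median of 0.03. The shift was present along the length: in 5 successive blocks of genes on chromosome 12 the medians were between -0.50 and -0.43, and on chromosome 4 they ran from 0.13 at the centromeric end to 0.40 in the middle and 0.40 at the end. In each library, relative to the mean of the 6, the median of chromosome 12 was between -0.24 and -0.22 in R172H and between 0.20 and 0.26 in Y202C, so the lines did not overlap. Set against p53 KO, the chromosome 12 median was -0.30 in R172H and 0.14 in Y202C, the chromosome 4 median 0.03 and -0.31, the chromosome 14 median 0.25 and -0.08, and the chromosome 15 median 0.23 and -0.02. Both values of a pair share the p53 KO libraries. DNA copy number was not analysed here and its part in these shifts was not tested. Genes named above that were shifted in the direction of their chromosome include Rrm2, Mycn, Syne2 and Gsc on chromosome 12. They also include Jak1, Cdkn2a, Cdkn2c, Tnc, Cdc20, Isg15 and Ddx58 on chromosome 4. Wnt5a, Irf9, Gdf10 and Cnmd on chromosome 14, and Slc1a3 and Hoxc8 on chromosome 15, were shifted so as well. Zdhhc21, Nfib and Col15a1, on chromosome 4, Meox2, Rsad2 and Fos on chromosome 12 and Cdh18 on chromosome 15 moved against the direction of their chromosome.

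**Figure D4:**
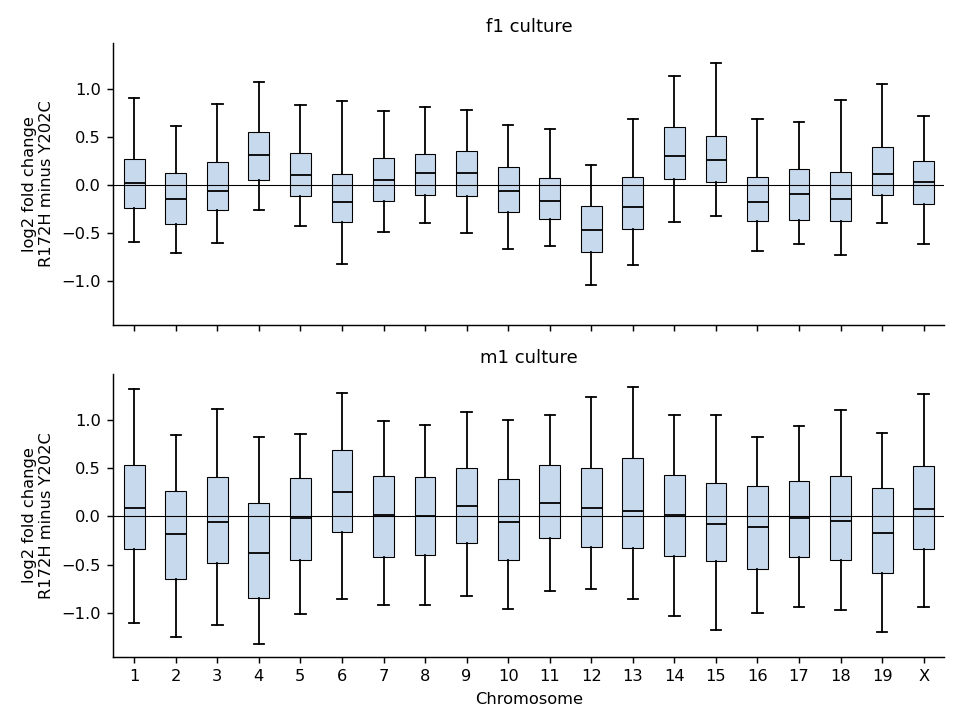
Boxes run from the 25th to the 75th percentile of the log2 fold changes of R172H minus Y202C for the genes of each chromosome, with the median as a line and whiskers from the 10th to the 90th percentile, in f1 (top) and m1 (bottom). Of the chromosomes plotted (the autosomes and X) in f1, chromosome 12 has the lowest median (-0.47) and chromosomes 4, 14 and 15 the highest, and in m1 the chromosome 12 median is 0.09 and the chromosome 4 median -0.38.

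The same pair of mutations in the male culture m1, which shares no library with f1, allowed a test of whether the difference was alike in another culture. In m1, 10298 genes (71.4%) differed between R172H and Y202C, and for 9881 genes (68.5%) the difference itself was unlike that in f1 by the interaction test. Of the 6532 genes past the test in both cultures, which are 76.1% of the f1 genes and 63.4% of the m1 genes, 2883 (44.1%) had the same direction and 3649 the opposite one. Across all genes the differences in f1 and m1 had a Spearman rho of -0.10 and a Pearson r of -0.09, values that describe genes and are not replicate measurements. Culture stands here for sex, animals and derivation together, which cannot be told apart.

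The interferon-stimulated genes differed between the cultures. In m1, 5 of the 30 were higher and 10 lower in R172H, with a median of -0.37, beside 34.4% higher and 36.9% lower among all genes in m1, so the share lower was near that of all genes. The difference in f1 and that in m1 were unlike for 29 of the 30 genes, beside 68.5% of all genes. The f1 difference is part of this test and the list was chosen with earlier results known. Its wide f1 differences therefore favour passing. Bst2 was at means of 10.4 CPM in m1 R172H and 40.5 CPM in m1 Y202C, a log2 fold change of -1.97, and the interaction was 6.03 (adjusted p = 3.6e-16). The sum over the list was 179 CPM in m1 R172H and 227 CPM in m1 Y202C, near the 174 CPM of f1 p53 KO. For MHC class I genes 6 of 15 rose and 7 fell in m1. Conversely, DNA replication and mitosis, undirected in f1, were higher in m1 R172H for 22 of 24 and 23 of 24 genes, beside 34.4% of all genes in m1, and the cultures differed for 21 and 22 genes. Of the HOX genes, 4 of 6 were lower and 1 higher in R172H in m1 too. In m1 Hoxa4 had no reads in R172H and a mean of 0.118 CPM in Y202C. Sfrp2 rose in both cultures (3.82 in f1, 4.14 in m1) with an interaction of -0.32 that did not pass (adjusted p = 0.45). Cdh3 rose in both (3.67 and 2.81) but by more in f1 (interaction 0.86, adjusted p = 6.4e-06). Jag1 fell by 1.49 in f1 and by 1.32 in m1, and Dchs1, a large protocadherin, rose by 2.32 and 2.01 (interaction 0.31, adjusted p = 0.039). In all, 997 genes changed by more than 1 on the log2 scale and passed the test in both cultures. Of these, 589 changed in opposite directions in the 2 cultures, while 245 were higher and 163 lower in R172H in both.

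**Figure D5:**
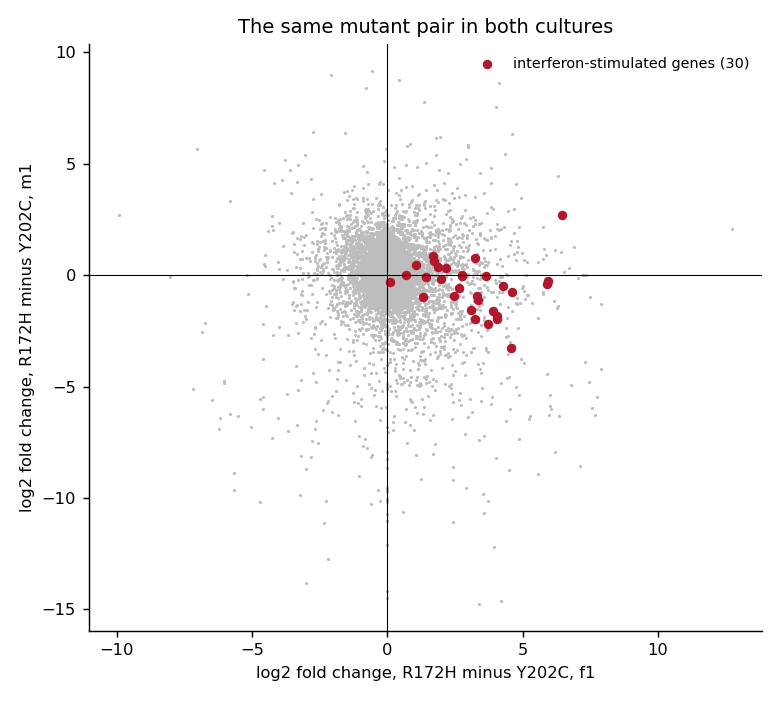
Each grey point is a gene, with the log2 fold change of R172H minus Y202C in f1 on the x axis and in m1 on the y axis. The 30 interferon-stimulated genes (red) lie to the right of 0 on the f1 axis, with a median of 3.16, and around a median of -0.37 on the m1 axis.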

How the data were processed

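The authors aligned reads of polyA RNA with STAR 2.5.1a to the Ensembl release 76 mouse assembly and deposited raw read counts per gene from Subread featureCounts. The counts were used as deposited, and no gene fell to a filter of above 1 CPM in at least 2 libraries. Fits used edgeR 4.0.16 (glmQLFit, glmQLFTest, TMM) in R 4.3.3 over all 24 libraries with 1 mean per line and no block. Genes past an adjusted p of 0.05 were called. Each SE is the absolute log2 fold change divided by the square root of that test's F statistic. It thus rests on dispersion estimated over all 24 libraries. Symbols and positions came from GENCODE M21 (GRCm38) for 14350 of 14427 identifiers. In simulated counts (13662 genes tested), all 100 genes changed by 1 and all 100 changed by 2 on the log2 scale in f1 R172H were recovered, with 9 false calls. The simulation gave every gene the same dispersion and left all other genes unchanged, unlike the data. It therefore does not give the rate of false calls in the real comparison.

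The members and lists were chosen with earlier results of these data known. Named genes were the 12 highest and 12 lowest called log2 fold changes where each library of the line with the higher level held 10 or more counts, the 6 highest and 6 lowest with a mean of at least 200 CPM, up to 2 members per direction of each of 40 lists with a mean of at least 1 CPM, and a fixed set around Trp53. Others named were chosen after their values were seen. Tfap2c, of the fixed set, was not analysed here, and a few genes that the rule names are not reported here. Deviations of same-numbered libraries correlated at 0.103 to 0.177 in m1 and -0.472 to -0.262 in f1. The labels do not say whether the numbers pair libraries across lines. The main fits used no pairing in either culture, and the alternative run with a replicate block applied it to all lines. Alternatives were limma 3.58.1 (voomWithQualityWeights), DESeq2 1.42.0, other scalings, filters, sample sets and thresholds, a replicate block and leaving out each replicate.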

Additional observations from a re-analysis of the deposited data

Results flagged for a closer look

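The difference between R172H and Y202C was unlike in the cultures f1 and m1 for 9881 of 14427 genes by the interaction test of edgeR. Of 33 genes with the widest f1 differences or fixed by name, 21 passed this test, a share below the 68.5% of all genes, and a choice by wide f1 differences itself favours passing. The 11 with at least 1 CPM in both cultures, a limit set after the values were seen, are given here as the f1 log2 fold change minus the m1 log2 fold change. Interferon-family genes had the widest values: Gbp9 at 13.19 and Gvin1 at 12.23, higher in R172H in f1 and lower in m1. Ccdc149 was at 11.74 with the same reversal. These 3 have means of at most 0.272 CPM in the lower line of each culture, so the sizes depend on the prior count. Eln was at -4.58 and Ablim3 at -2.05, both lower in R172H in each culture and more so in f1. Trp53 was at 1.74, with means of 2287 CPM in m1 R172H and 2324 CPM in m1 Y202C. Fgf2 was at 1.49 and Wnt5a at 1.38, with lower levels in R172H than in Y202C in m1. Cdkn1a was at 0.77, Vim at 0.52 and Mdm2 at 0.37.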

How the results depend on the processing

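The 8589 genes differing in f1 were 8892 with limma voomWithQualityWeights, 8680 with DESeq2, 7507 above 5 CPM in at least 3 libraries, 7525 from the libraries of these lines alone and 7897 to 8579 without 1 replicate; a replicate block gave 8445 in f1 and 10202 in m1 and moved no count by 1.5 times. Counts without 1 replicate were 9818 to 9974 in m1 and 9594 to 9930 for the interaction. Size limits moved the counts: above 0.5, 4003 in f1 (2146 higher, 1857 lower) and 6305 in m1 (3096, 3209); above 1, 1902 in f1 (1164, 738), 2976 in m1 (1510, 1466) and 4036 for the interaction (2126, 1910). The interferon-stimulated count stayed at 29 and MHC class I at 13 or 14 in each alternative run, including those added after seeing the data. Chromosome medians moved with scaling. Chromosome 4 was 0.33 with DESeq2 size factors, 0.24 without TMM and 0.35 above 5 CPM, chromosome 14 was 0.32, 0.23 and 0.33 in that order, and without TMM chromosomes 12 and 15 were -0.54 and 0.19. Without TMM the median of all genes was -0.08. Values near 0 changed sign: Vim without TMM (-0.0327) or 1 replicate (-0.0219 to 0.116), Ifi27 without 1 (-0.0032 to 0.188), Ifnar1 with limma (-0.002), without TMM (-0.0665), in the smaller sample sets (-0.0008) and without 1 replicate (-0.0126 to 0.0325), and Aqp4, with reads in 1 library per line, with limma (0.0502) or without 1 replicate (-3.02 to 2.45). Y202C library 2 stood furthest from its replicates. A floor of 3 counts is at most 0.056 CPM in these libraries.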
